A study of Caenorhabditis elegans with 32 samples.

Results

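The genomic input libraries of 2 *met-2* mutant strains of *C. elegans* were compared with those of the wild type. They were 9 of the 32 libraries of the series, chosen by their labels: 3 inputs of *met-2Δ*, 3 of *met-2-CD* and 3 of WT. An input is sheared chromatin sequenced without immunoprecipitation, so its read depth at a place follows the amount of DNA there and how easily that chromatin is sheared and recovered. A place with no DNA gives no reads in the input and none in an immunoprecipitate (IP), and a place with extra copies gives more in each. MET-2 is the SETDB1-like methyltransferase that deposits methylation on lysine 9 of histone H3 (H3K9me), a mark of silent chromatin. H3K27ac is an acetyl mark of active promoters and enhancers.

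The series measured H3K27ac and H3K9me2 by ChIP-seq in early embryos, and the inputs described here belong to the H3K27ac experiment. *met-2Δ* carries the deletion allele *n4256* and *met-2-CD* carries *gw1660*, which changes a catalytic residue of MET-2. The labels put both alleles on chromosome III. WT is N2 (Bristol). All 3 groups were kept at 20 °C. The experiment also holds 3 WT inputs from worms exposed to 37 °C, and the H3K9me2 experiment holds 4 WT inputs, 2 at 20 °C and 2 at 37 °C. Each genotype was 1 strain, so the *met-2* allele and any other difference between the strains cannot be told apart. Chromatin was pooled from many embryos, so a change in copies per cell and a change in the share of cells that carry it cannot be told apart either.

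The 9 inputs held between 16899918 and 65133682 reads, and the 9 IP libraries of the same groups between 19327992 and 36470940. Reads were counted in 500-bp windows of ce10 and are given below as scaled reads, that is, multiplied to a library of 28101776 reads. The median window of the nuclear genome held 143 scaled reads in the WT inputs. Of 200579 windows, 196212 had a mean of at least 10 scaled reads over the 9 inputs and were tested with edgeR's quasi-likelihood test. The threshold for a call was an adjusted p-value of 0.01. Libraries labelled WT were not alike everywhere: 6 windows with at least 20 scaled reads in each WT input of the H3K27ac experiment had no read in any of the 4 WT inputs of the H3K9me2 experiment. They included 4 of the windows described below, so results there depend on which WT libraries are compared.

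In *met-2Δ*, 106 input windows were called against WT, 92 lower (0.0469% of those tested) and 14 higher (0.00714%). In *met-2-CD* there were 8, of which 7 were lower (0.00357%) and 1 higher (0.00051%). Unadjusted p-values under 0.05 were found at 11332 windows for *met-2Δ* and 12645 for *met-2-CD*. The *met-2Δ* count rested on single libraries: it was 34 without *met-2Δ* replicate 1, 37 without replicate 2, 190 without replicate 3, 70 without WT replicate 2 and 33 without WT replicate 3. A window was taken as absent when all 3 inputs of a strain held at most 2% of the WT mean and every WT input held at least 20 scaled reads. This rule found 2 windows in *met-2Δ*, while *met-2-CD* had 4, none of them shared. The reverse scan, for windows absent in WT and present in a mutant, found 0 in each strain. Because input values chose these windows, their input levels are a description, and the IP libraries and the other WT inputs are the readouts that the rule did not use. The paper calls the peaks of each IP against a matched input, so an IP is not a separate readout of shearing or recovery.

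The 2 windows absent in *met-2Δ* were adjacent, at chrIII:8376567-8377566. They held 0, 0 and 0 reads in the *met-2Δ* inputs, against 177, 182 and 269 in the WT inputs. The rule for absence itself requires that no *met-2Δ* input overlaps WT here. With 3 reads over the group as the floor, the depth was at least 397-fold lower in *met-2Δ*. The *met-2-CD* inputs held 266, 239 and 259 reads over the same windows and the WT 37 °C inputs 297, 205 and 290, so the absence was not shared by the other strain or by heated WT worms. The 4 WT inputs of the H3K9me2 experiment held 1272 reads there in all. In the IP libraries, *met-2Δ* had 0, 4 and 1 reads, against 221, 178 and 225 in WT. This was 0.545% of the WT level (95% exact interval from 0.176% to 1.28%, counting error only). The summed IP levels did not overlap, and the exact permutation test gave a two-sided p of 0.1, the smallest that 3 against 3 libraries allow.

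The window before the stretch, chrIII:8376067-8376566, kept a reduced level in *met-2Δ*. Its scaled input was 32.4, 34.1 and 25.2 in *met-2Δ*, against 169.6, 167.1 and 127.2 in WT. The log2 fold change was −2.27 ± 0.18 (SE), with an edgeR adjusted p of 6.2e-19, and the IP log2 fold change at the window was −2.43 ± 0.24. In the first window after the stretch the mean input was 118.5 in *met-2Δ* and 145.6 in WT, and in the next it was 170.2 in *met-2Δ* and 187.6 in WT. The plot of inputs across the stretch shows the edges. The labels place *met-2* on chromosome III, and this was the only place on that chromosome, and in the genome, where all 3 *met-2Δ* inputs were empty among windows with at least 20 scaled reads in every WT input. A ce10 gene annotation was not used here, so no exon or intron is assigned.

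**Figure D1:**
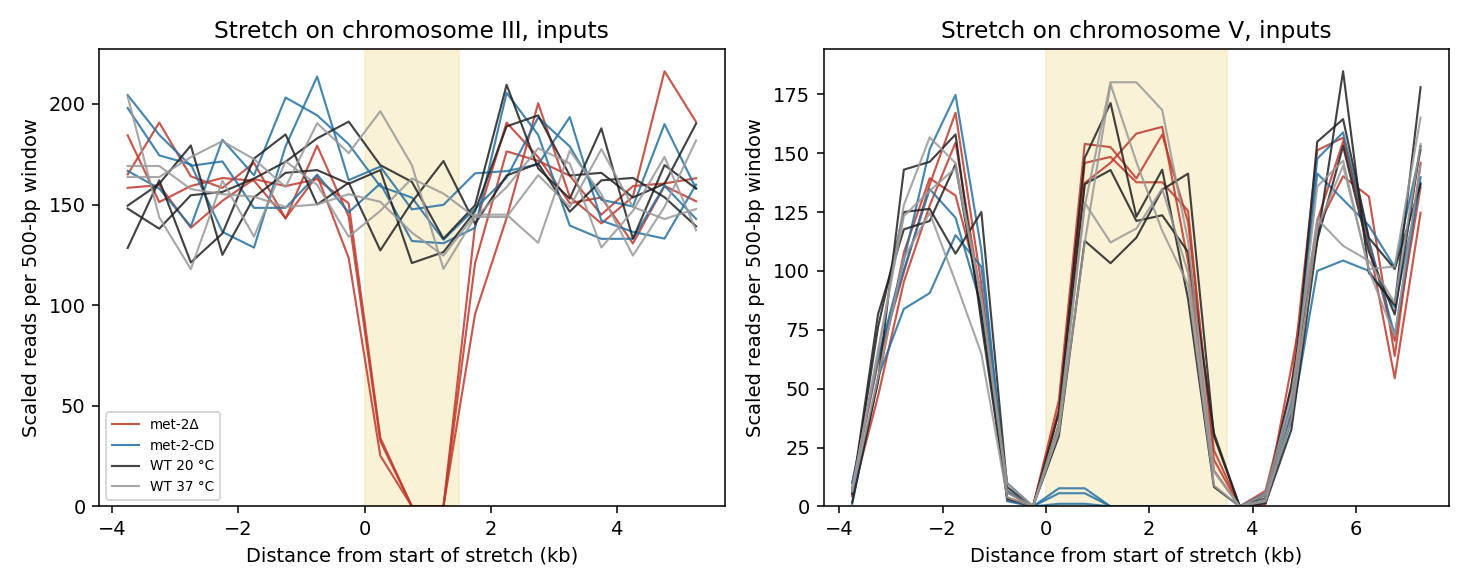
Scaled reads per 500-bp window (y axis) against distance from the start of the called stretch in kb (x axis), 1 line per input library, with the called stretch shaded. On chromosome III the 3 *met-2Δ* lines fall to 0 in 2 windows. On chromosome V the 3 *met-2-CD* lines stay near 0 over 7 called windows while *met-2Δ*, WT and WT 37 °C lines do not.

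In *met-2-CD*, the 7 lower windows formed 1 stretch of 3500 bp at chrV:5079954-5083453, on another chromosome than *met-2*. The inputs held 10, 14 and 2 reads over the whole stretch in *met-2-CD*, against 434, 490 and 582 in WT. The few reads of *met-2-CD* all lay in the first 2 windows. The 4 absent windows, chrV:5080954-5082953, held 0, 0 and 0 reads in *met-2-CD* and 316, 363 and 413 in WT, at least 454-fold lower. The windows on either side of the stretch held no read in any input library, so its edges are not set by these counts.

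The other strain and the other WT inputs divided at this stretch. *met-2Δ* inputs held 597, 1273 and 430 reads over the 4 windows, and the WT 37 °C inputs 598, 422 and 468. The 4 WT inputs of the H3K9me2 experiment held 0, 0, 0 and 0, and the 4 H3K9me2 IP libraries also held 0. The deepest of these inputs had 89301222 reads. Libraries labelled WT thus showed both states, and *met-2-CD* matched the empty one. Over the 7 windows the reads per library of the H3K9me2 experiment were 0 to 28, and they too lay only in the first 2 windows. The H3K27ac IP libraries followed their own inputs. Over the 4 windows *met-2-CD* IPs held 4, 6 and 2 reads, against 439, 458 and 443 in WT IPs, which is 0.762% of WT (95% exact interval from 0.393% to 1.33%, exact permutation p = 0.1).

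**Figure D2:**
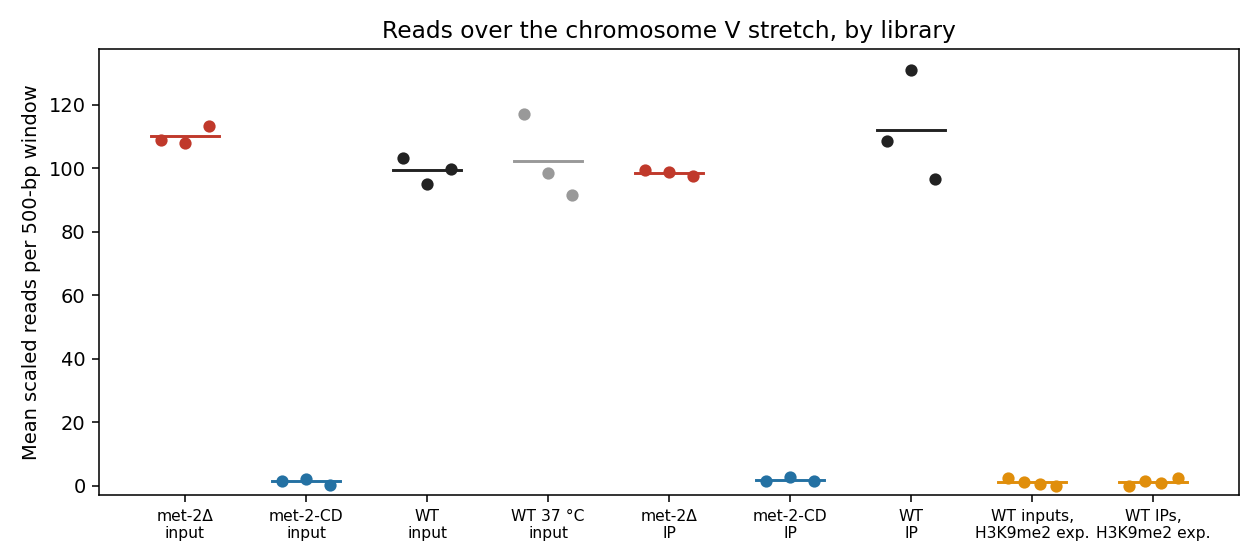
Mean scaled reads per 500-bp window over the 7 called windows on chromosome V (y axis) for each library group (x axis), with 1 point per library and a bar at the mean. *met-2-CD* libraries and all 8 WT libraries of the H3K9me2 experiment lie near 0 and the other H3K27ac libraries lie well above them.

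Beyond the stretch on chromosome III, *met-2Δ* had a further loss at chrV:16731905-16732904. The scaled input over its 2 windows was 57.2, 55.2 and 65.0 in *met-2Δ*, against 309.3, 353.3 and 283.3 in WT. The groups did not overlap, which was a condition for naming these windows. In the first window the mean was 9.45 ± 1.21 in *met-2Δ* and 151.6 ± 10.3 in WT (SD, n = 3 each), and the log2 fold change was −4.05 ± 0.23 (SE, edgeR adjusted p = 1.7e-30). *met-2-CD* inputs held 296.4, 330.8 and 267.2 scaled reads, and WT 37 °C inputs 260.5, 312.9 and 312.5. The IP libraries held 46.2, 50.6 and 40.4 in *met-2Δ* and 196.0, 200.6 and 192.4 in WT, so the IP level was lower as well, at 0.233 of WT, beside 0.188 of WT in the input.

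A pair of windows at chrII:3226500-3226999 and chrII:3228500-3228999 was also low in *met-2Δ*. The first held 9.93 ± 3.65 scaled reads in *met-2Δ* and 44.2 ± 9.42 in WT (SD, n = 3 each). The second held 17.0 ± 3.12 in *met-2Δ* and 52.4 ± 15.0 in WT. Both were called again when the WT 37 °C inputs replaced the WT inputs, with log2 fold changes of −2.36 and −2.15. In the IP libraries the fold changes were −1.74 and −1.39, neither of them called (adjusted p = 0.066 and 0.045).

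The largest set of higher windows in *met-2Δ* lay at chrV:17254402-17260401, where 11 windows within 6000 bp were called. Scaled input over the stretch was 2820, 2848 and 2798 in *met-2Δ*, against 1490, 1406 and 1470 in WT. The level in *met-2Δ* was 1.94 times that of WT, and *met-2-CD* was at 0.962 of WT. The single windows had log2 fold changes from 0.71 to 1.13. In the IP libraries the stretch held 2346, 2035 and 2390 scaled reads in *met-2Δ*, against 843.2, 900.0 and 977.2 in WT, a ratio of 2.49. All 11 windows were called higher in the IP libraries. The excess of the IP ratio over the input ratio was not tested at this stretch. None of its windows lay in an H3K27ac region, so no region call rests on it.

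A second gain in *met-2Δ* covered 3 windows at chrII:10122970-10124469. Scaled input was 782.0, 740.4 and 772.2 in *met-2Δ* and 229.3, 240.7 and 293.7 in *met-2-CD*, against 164.6, 194.3 and 153.6 in WT. In the middle window the level was 435.7 ± 22.7 in *met-2Δ* and 85.3 ± 13.6 in WT (SD, n = 3 each), a log2 fold change of 2.36 ± 0.14 (SE, edgeR adjusted p = 1.7e-30). The IP libraries gave a log2 fold change of 2.34 ± 0.17 at that window. The windows to either side of the middle one had a different order. In the first of them the mean was 159.8 in *met-2Δ*, 86.7 in *met-2-CD* and 42.2 in WT, and the 4 WT inputs of the H3K9me2 experiment, at 65.9, 71.2, 63.8 and 72.5, lay between *met-2-CD* and WT.

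The higher window of *met-2-CD* against WT at 20 °C, chrII:10672468-10672967, was also high in *met-2Δ* inputs. It held 161.0, 171.5 and 132.5 scaled reads in *met-2-CD*, against 76.5, 93.8 and 82.8 in WT. The log2 fold change was 0.87 ± 0.16 (SE), with an edgeR adjusted p of 0.0089 that lies close to the threshold. *met-2Δ* inputs held 136.4, 152.7 and 115.4, also above every WT input, and the 4 WT inputs of the H3K9me2 experiment held 144.1, 170.0, 117.7 and 78.3, the last of them within the range of WT. When both mutants were tested together against WT, this window was higher by 0.79 on the log2 scale (adjusted p = 0.0023). The call in *met-2-CD* was lost under 8 of 14 alternatives, with adjusted p-values from 0.011 to 0.16, among them DESeq2 at 0.015, while the log2 fold change stayed between 0.77 and 0.97 over the 14. Against the WT 37 °C inputs 12 windows were called in *met-2-CD*, 4 of them higher, and these included the outer windows of the chromosome II gain at chrII:10122970 (log2 fold change 1.68, edgeR adjusted p = 2.5e-08) and chrII:10123970 (1.37, adjusted p = 3.5e-06).

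**Figure D3:**
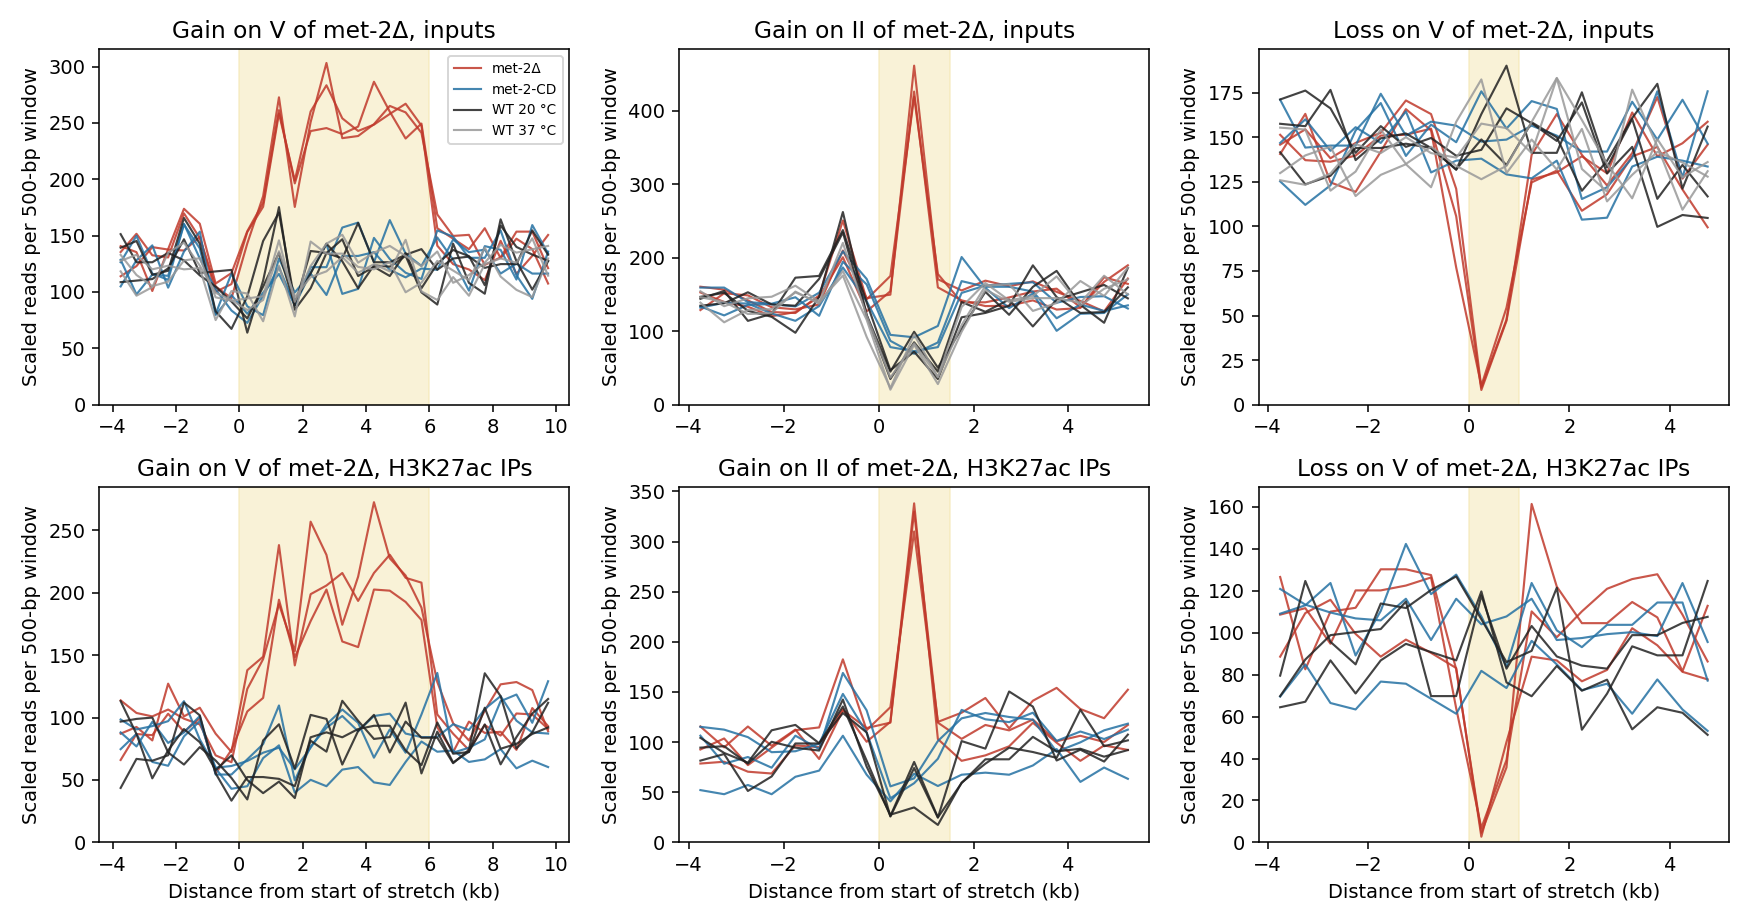
Scaled reads per 500-bp window (y axis) against distance from the start of the called stretch in kb (x axis) at the 2 gains and the loss of *met-2Δ*, inputs above and H3K27ac IPs below, 1 line per library. In each panel the 3 *met-2Δ* lines leave the *met-2-CD* and WT lines inside the shaded stretch, in the same direction in input and IP.

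Most of the remaining calls of *met-2Δ* depended on the WT libraries compared. Of its 106 windows, 22 were called again, in the same direction, with the WT 37 °C inputs in place of the WT inputs: 13 higher windows in the 2 gains, and 9 lower windows. These 9 comprised the 7 windows of the losses above and 2 further windows. At chrI:14700438-14700937 the mean input was 138.5 in *met-2Δ* and 223.1 in WT, and at chrIV:1544838-1545337 it was 77.6 in *met-2Δ* and 150.0 in WT.

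The other 84 windows, 83 of them lower, were called against WT at 20 °C but not against the WT 37 °C inputs. Over these, the median scaled input was 74.4, 90.4 and 134.0 in the 3 *met-2Δ* libraries, 123.0, 175.8 and 134.2 in *met-2-CD*, and 139.7, 173.3 and 192.1 in WT. The third *met-2Δ* library thus lay near the lowest WT library, and in 76 of the 84 windows the first was the lowest of the 3. The WT 37 °C inputs had medians of 123.3, 90.3 and 111.6, below WT at 20 °C and within the range of *met-2Δ*. In 73 of the 84 windows the WT 37 °C mean lay between those of *met-2Δ* and WT, and in 79 the *met-2-CD* mean did. The windows were chosen for a difference between *met-2Δ* and WT, so these counts are not particular to the WT 37 °C libraries. The 4 WT inputs of the H3K9me2 experiment had medians from 72.0 to 253.8 at these windows. Libraries of WT worms thus spanned the level of *met-2Δ* only with heated worms or the other experiment included. Heat, experiment and spread among WT libraries cannot be told apart here. The part of shearing, recovery or library preparation in these differences was not tested.

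The named examples show this spread. At chrX:3129224-3129723 the scaled input was 37.2, 59.5 and 82.3 in *met-2Δ* and 99.5, 100.01 and 125.9 in *met-2-CD*, against 171.3, 157.6 and 175.3 in WT. The WT 37 °C inputs held 114.7, 95.4 and 85.3 there. At chrIV:9048805-9049304 it was 119.2, 173.4 and 241.5 in *met-2Δ*, against 317.6, 358.7 and 459.7 in WT. At chrIV:13579286-13579785 it was 46.7, 100.1 and 168.5 in *met-2Δ*, against 199.5, 271.8 and 238.9 in WT. Not overlapping WT at 20 °C was a condition for naming these 3 windows. None of them was called against the WT 37 °C inputs, where the edgeR adjusted p-values were 0.24, 0.99 and 0.97. DESeq2 called the first window only. Against the *met-2-CD* inputs all 3 were called lower in *met-2Δ*, with edgeR adjusted p-values of 0.0061, 0.0052 and 0.0008.

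The IP log2 fold change had the sign of the input in 106 of 106 windows of *met-2Δ* and in 8 of 8 of *met-2-CD*. Of these, 33 and 7 windows were called in the IP libraries themselves. The share of all tested windows with the same sign was not counted, and each IP has a matched input. The sign counts are therefore a description only. At chrX:3129224 the *met-2Δ* IPs held 37.0, 60.6 and 83.5 scaled reads, beside 37.2, 59.5 and 82.3 in the inputs of the same number. WT had no such match there, with 89.5, 158.5 and 109.6 in the IPs and 171.3, 157.6 and 175.3 in the inputs. The IP difference at this window was not called (log2 fold change −0.98, edgeR adjusted p = 0.015). Over all 196184 nuclear windows tested in the IPs, 82 were lower (0.0418%) and 358 higher (0.182%) in *met-2Δ*, and 13 were lower (0.00663%) and 37 higher (0.0189%) in *met-2-CD*. Windows with a called input made up 19 of the 82 lower IP windows of *met-2Δ* (23.2%) and 14 of the 358 higher ones (3.91%). In *met-2-CD* they made up 7 of the 13 lower IP windows (53.8%), all in the chromosome V stretch, and 0 of the 37 higher ones. One of the 37, chrII:10123970-10124469 in the second gain of *met-2Δ*, had an input difference that missed the threshold. Its scaled input was 78.3, 84.6 and 107.1 in *met-2-CD*, against 44.9, 50.3 and 34.8 in WT (log2 fold change 1.07 ± 0.21, edgeR adjusted p = 0.018), and its IP log2 fold change was 1.81 ± 0.31 (adjusted p = 4.4e-05).

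**Figure D4:**
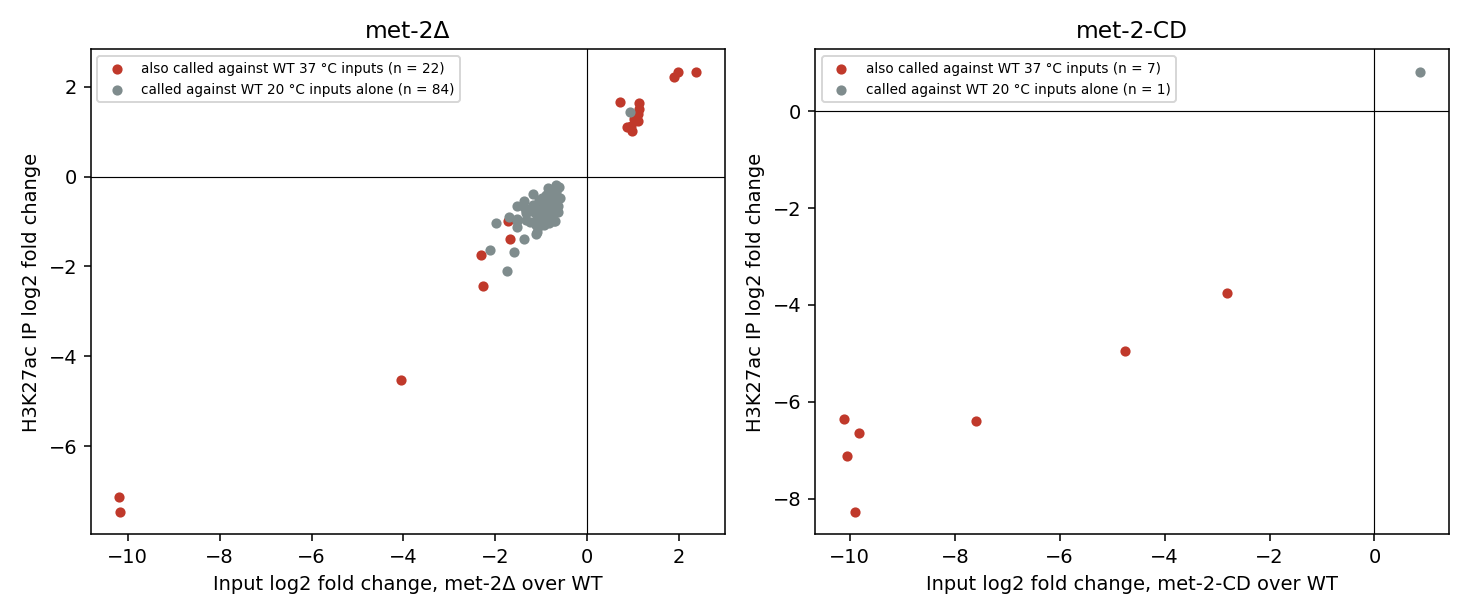
Log2 fold change over WT in the H3K27ac IPs (y axis) against that in the inputs (x axis) at every called input window, 1 point per window, *met-2Δ* on the left and *met-2-CD* on the right. All points lie where input and IP have the same sign, and the 22 windows of *met-2Δ* and 7 of *met-2-CD* also called against WT 37 °C inputs include the lowest of each strain. Fitted values near −10 belong to windows with 0 input reads and depend on the prior count of the model.

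To define H3K27ac regions, neighbouring windows were joined where the IP exceeded its input by 1 or more on the log2 scale in 2 or more of 12 pairs of libraries. Of 5216 regions, 47 were called in *met-2Δ* (0.901%), 41 higher and 6 lower. In *met-2-CD* 10 were called (0.192%), 8 higher and 2 lower. The *met-2Δ* count was 235 with TMM and 329 with DESeq2, and the *met-2-CD* count 48 and 71. Without single libraries these counts were as low as 19 (without *met-2Δ* replicate 2) and 1 (without WT replicate 2). Over all 5216 regions, 0 contained a called or absent input window of *met-2Δ*, and 9 lay within 1000 bp of one. None of these 9 was among the 47 called, and their IP log2 fold changes ran from −0.73 to 0.21. As so few regions lay near such a window, finding 0 of the 47 there is no result about those calls. Leaving out the absent windows, and then all called windows as well, left the same 47 calls. As none of the 47 held such a window, this step could not change their read counts. Among the 41 higher regions the input log2 fold change ranged from −0.19 to 0.31 with a median of −0.01, beside a median IP log2 fold change of 0.92. Of the 5216 regions, 0 had a called input difference in *met-2Δ* and 335 had an unadjusted p under 0.05, among them 1 of the 47.

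All 6 absent windows, 2 of *met-2Δ* and 4 of *met-2-CD*, were among the lower IP windows. Among the 5216 regions, 1 called difference lay where the input was absent. It was the region at chrV:5080954-5081453, 1 window long, inside the stretch that *met-2-CD* lacks. Its IPs held 4, 2 and 1 reads in *met-2-CD* and 234, 199 and 185 in *met-2Δ*, against 150, 183 and 176 in WT. Its inputs held 0, 0 and 0 reads in *met-2-CD*, against 103, 76 and 119 in WT. The IP log2 fold change of −6.37 ± 0.36 (SE, edgeR adjusted p = 2.7e-64) was the lower of the 2 lower calls in *met-2-CD*. The window entered the set of regions through 3 of the 12 pairs, 2 of them *met-2-CD* pairs whose log2 ratios of 1.498 and 1.198 were formed from 4 and 2 IP reads over 0 input reads with a pseudocount of 2. The third was a WT pair at 1.35.

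Leaving out the absent windows took the *met-2-CD* calls to 7, all higher and all among the 10. Besides the chromosome V region, 2 regions crossed the threshold by a small margin. The adjusted p-value at chrI:2339991-2340490 was 0.0101 without the absent windows, against 0.0090 with them. At chrII:1930006-1931005, the other lower call, it was 0.0101, against 0.0089. Their log2 fold changes of 0.85 and −0.82 did not change, and their inputs differed from WT by −0.06 and 0.02.

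When H3K27ac was tested over input, by an edgeR interaction of library kind and strain, 17 regions were called in *met-2Δ* (0.326%), 16 higher and 1 lower, and all were among the 47. The fit took inputs and IPs as separate libraries and did not pair an IP with its own input. TMM called 114, and leaving out any single *met-2Δ* or WT replicate, its input and its IP together, left 5 to 10. In *met-2-CD* 0 of 5216 were called (0%), with 169 at an unadjusted p under 0.05, while TMM normalization called 11. The chromosome V region was not called, but this test cannot decide there because *met-2-CD* had 0 input reads. Its fitted log2 value over input, 3.72 ± 1.52 (SE), depends on the prior count. In *met-2Δ*, the region with the lowest IP p-value, chrV:15590409-15591908, rose by 1.70 ± 0.20 in the IPs and by 1.58 over input, with an input change of 0.13. The lower region that remained over input, chrI:10034458-10035957, fell by 1.28 on the log2 scale in the IPs, with an input change of 0.04. The other 5 lower regions of *met-2Δ* were not called over input.

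At a larger scale the 3 genomes had nearly equal depth. Of 1005 bins of 100 kb, 1002 of *met-2Δ* and 1003 of *met-2-CD* lay within 0.1 of WT on the log2 scale. Outside this range, chrV:2400001-2500000 differed by −0.40 ± 0.58 (SE) in *met-2Δ* and by −0.14 ± 0.60 in *met-2-CD*. The others were chrI:3100001-3200000 (−0.12 ± 0.05) and chrV:17200001-17300000 in *met-2Δ*, and chrI:15000001-15072423 (0.18 ± 0.04) in *met-2-CD*. Of these, only chrV:17200001-17300000 was called. In *met-2Δ* 32 bins were called (3.18%), 30 lower and 2 higher, but the lower ones differed by at most 0.07. With nuclear totals as library size 4 were called, and without *met-2Δ* replicate 2, WT replicate 2 or WT replicate 3 there were 0. With the WT 37 °C inputs 33 were called, 31 of them higher. The 2 lower bins with the smallest p-values, chrX:3600001-3700000 and chrIV:13700001-13800000, both changed by −0.04. The bin with the largest called difference, chrV:17200001-17300000, rose by 0.11 ± 0.01 (SE, edgeR adjusted p = 0.0031) and held the gain on chromosome V. The other higher bin, chrII:1900001-2000000, rose by 0.06 ± 0.01. In *met-2-CD* 0 bins were called (0%) by edgeR. Of the 1005 bins, 51 had an unadjusted edgeR p under 0.05 in *met-2-CD* and 251 in *met-2Δ*.

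Chromosome shares of the nuclear reads differed by at most 0.154 percentage points between a mutant and WT. Chromosome V took 19.96, 19.94 and 20.01% of reads in *met-2Δ* inputs, against 19.76, 19.83 and 19.86% in WT inputs. Chromosome III took 13.92, 13.96 and 13.95% in *met-2Δ*, against 14.07, 14.04 and 14.01% in WT. In 5 of the 12 comparisons the libraries did not overlap, 4 of them in *met-2Δ*. The smallest exact permutation p was 0.1, the least that the design allows, and 0.24 after Benjamini-Hochberg adjustment over the 12.

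The mitochondrial genome took 2.39, 2.51 and 2.55% of reads in *met-2Δ* inputs, 2.11, 1.90 and 2.38% in *met-2-CD* inputs and 2.40, 1.48 and 1.80% in WT inputs. The means were 2.48 ± 0.08% in *met-2Δ*, 2.13 ± 0.24% in *met-2-CD* and 1.89 ± 0.47% in WT (SD, n = 3 each). Each mutant overlapped WT, and the two-sided exact permutation p was 0.2 for *met-2Δ* and 0.5 for *met-2-CD*, or 0.4 and 0.5 after adjustment. The WT 37 °C inputs held 4.67, 2.43 and 2.94%, so WT libraries spanned a wider range than the mutants. In the IPs the shares were 1.46, 1.04 and 1.82% for *met-2Δ*, 1.12, 1.08 and 0.524% in *met-2-CD* and 0.781, 0.651 and 1.16% in WT. Along the mitochondrial genome, the depth of 25 windows relative to their mean lay between 0.977 and 1.06 times WT in *met-2Δ* and between 0.953 and 1.04 times WT in *met-2-CD*. No mitochondrial window was absent in a strain.

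**Figure D5:**
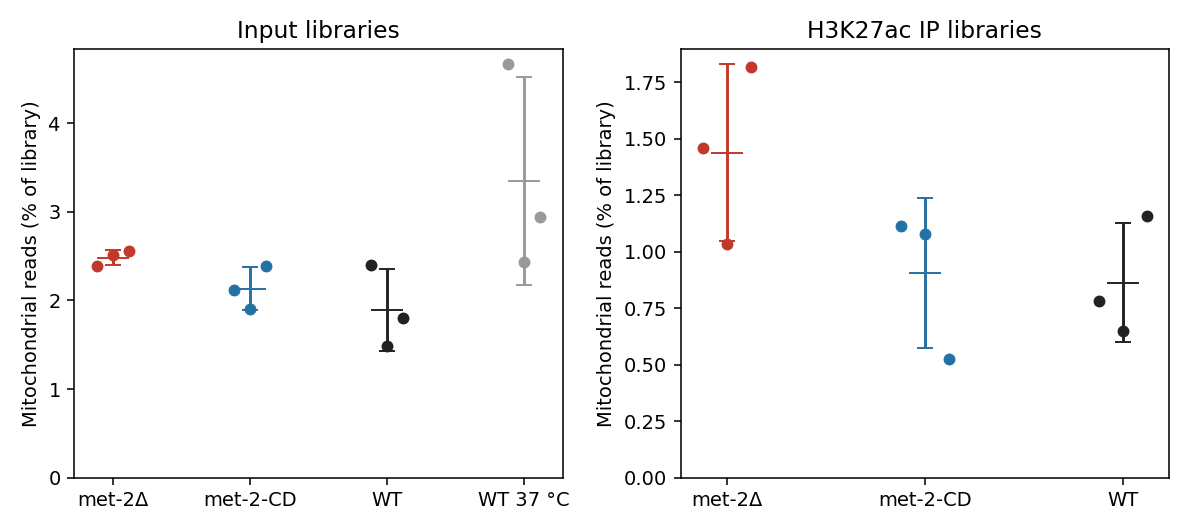
Mitochondrial reads as a percent of each library (y axis) by group (x axis), inputs on the left and H3K27ac IPs on the right, with 1 point per library and the mean ± SD. The input shares of *met-2Δ* (2.39 to 2.55%) and *met-2-CD* (1.90 to 2.38%) overlap those of WT (1.48 to 2.40%).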

How the data were processed

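The authors used bowtie, run from QuasR, to align paired-end reads to ce10, and deposited raw counts of uniquely aligned reads per 500-bp window, 1 column per library. Both mates were counted, and no molecular identifiers were used, so reads are not independent molecules and intervals cover counting error only. Columns were matched to samples by their labels.

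Scaled reads used each library's total over all windows, mitochondrial ones included, and the nuclear total for the H3K9me2 experiment. The quasi-likelihood test of edgeR 4.0.16 (R 4.3.3, library sizes from the totals, Benjamini-Hochberg) was run on windows, 100-kb bins and H3K27ac regions. Single values were tested with exact permutation tests, two-sided. DESeq2 1.42.0 was an alternative. Figures used matplotlib 3.10.9. The tests were tried on simulated data.

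Named windows were all absent runs and, per strain, up to 5 higher and 5 lower runs of called windows with the smallest p-values whose replicates lay outside the WT range, together with 2 higher and 2 lower bins and the regions within 1000 bp of a changed window. The further windows on chromosomes I, II and IV, the regions given as examples over input, and the flanks were chosen after their values were seen. The windows and lists were chosen with earlier results of these data known. The labels describe biological replicates.

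Replicate numbers were checked as pairs by the correlation of deviations from group means. For H3K27ac regions of *met-2Δ* and WT, all 3 same-numbered pairs had an r over 0.1 (from 0.169 to 0.278). For input windows none did. A genome or annotation of ce10 was not used here.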

Additional observations from a re-analysis of the deposited data

Results flagged for a closer look

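In libraries outside the comparison, 6 windows had no read in any of the 4 WT inputs of the H3K9me2 experiment and at least 20 scaled reads in each WT input of the H3K27ac experiment. Of these, 4 were the absent windows of *met-2-CD* on chromosome V. The other 2, at chrII:527012-528011, were covered in both mutants as in WT. In the reverse direction, 154 windows had at least 20 scaled reads in the 4 H3K9me2 inputs and at most 2% of that in the WT inputs of the H3K27ac experiment, so the 2 tables also differ at windows that are not covered in the H3K27ac inputs. The mitochondrial share of the H3K9me2 inputs was 4.44 to 45.0%.

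The inputs of the 2 mutants were also tested against each other, and 55 windows differed, 23 higher and 32 lower in *met-2Δ*. *met-2Δ* was lower than *met-2-CD* by 4.07 on the log2 scale in the first window of the chromosome V loss (log2 difference −4.07), and the log2 differences were −2.36 at chrIII:8376067, −0.90 at chrX:3129224, −0.71 at chrIV:9048805 and −0.88 at chrIV:13579286. It was higher than *met-2-CD* by 2.48 in the middle window of the chromosome II gain, and by 0.92 and 0.91 at chrV:17258902 and chrV:17254402. In the chromosome V stretch that *met-2-CD* lacks, the log2 difference was 4.89 at chrV:5080454. The fitted values of −10.17 at chrIII:8376567, 10.24 at chrV:5081954 and 7.29 at chrV:5082954 involve a strain with 0 reads and depend on the prior count.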

How the results depend on the processing

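Counts of input windows in *met-2Δ* depended on the setting. They were 32 with DESeq2, 187 at an adjusted p under 0.05, 25 against the WT 37 °C inputs and 55 against *met-2-CD*, and 33 to 190 with 1 replicate left out (34 and 37 without *met-2Δ* replicates 1 and 2, 190 without replicate 3, 33 without WT replicate 3). Without WT replicate 1 there were 30 higher calls, and with any other replicate left out 13 to 15. In *met-2-CD* the count was 5 with a minimum of 50 scaled reads, 13 at an adjusted p under 0.05 and 30 with both mutants together, and 7 with any replicate left out. The absent windows of *met-2-CD* were 0 when the WT inputs of the H3K9me2 experiment were the comparison, and 4 to 5 with a replicate left out. Those of *met-2Δ* were 2 throughout, except 3 at a limit of 10% of WT. As mean scaled reads, IP depth in absent windows was 0.573% of the WT depth for *met-2Δ* and 0.801% for *met-2-CD*, and with a replicate left out it stayed between 0.174% and 0.859% of WT in *met-2Δ* and between 0.505% and 1.02% in the other strain. Bins of *met-2Δ* numbered 10 at 20 kb, 4 with nuclear totals, 6 with TMM and 0 to 51 with a replicate left out. Bins of *met-2-CD* numbered 11 against the WT 37 °C inputs and 0 with any replicate left out. Regions of *met-2Δ* numbered 235 with TMM, 329 with DESeq2, 440 with every window in place of regions, and 19 to 39 with a replicate left out (23 and 19 without *met-2Δ* replicates 1 and 2, and 29, 21 and 28 without WT replicates 1, 2 and 3). Regions of *met-2-CD* numbered 48, 71 and 50 under the same settings and 1 to 12 with a replicate left out. Over input, TMM called 114 regions of *met-2Δ* and 11 of *met-2-CD*, and with a replicate left out there were 5 to 10 of *met-2Δ* and 0 of *met-2-CD*. The mitochondrial difference turned to −0.862 percentage points for *met-2Δ* and −1.21 for *met-2-CD* against the WT 37 °C inputs, and with a replicate left out it was 0.385 to 0.843 and 0.0347 to 0.493. The causes were not tested. The tests against *met-2-CD*, of both mutants together, of every window and of the H3K9me2-experiment inputs, and the values of chromosome shares against 37 °C and of IP reads without a replicate, were added after the data had been seen.

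With the replicate number as a block, 121 input windows and 8 bins were called in *met-2Δ*, and 8 windows and 1 bin in *met-2-CD*. The block left 35 regions of *met-2Δ* and 5 of *met-2-CD*, and 14 and 0 over input. For the paired H3K27ac regions of *met-2Δ* the block moved no count by over 1.5 times. Input libraries of the same number did not deviate together.

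The shallowest of the 9 inputs, WT replicate 1, had 16899918 reads and the deepest, *met-2Δ* replicate 2, had 65133682, so levels in single WT windows carried more counting error. Windows under the minimum of 10 scaled reads were not tested.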
